A study of Mus musculus with 6 samples.

Results

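Genomic imprinting leaves a gene active mainly from the copy inherited from 1 parent, and many of the genes under such control act on the growth of the fetus. They lie in clusters, each steered by a control region whose DNA methylation differs between the maternal and paternal copies, and a cluster often holds a long non-coding RNA that silences or accompanies its neighbours. Genes active from the paternal copy, such as Igf2, tend to promote fetal growth, and genes active from the maternal copy, such as Igf2r, Cdkn1c and Grb10, tend to restrain it. The 43 genes described here were chosen by symbol as imprinted genes of fetal growth, out of 55809 gene rows in the deposited tables, and all 43 had a row. For several of them (Ube3a, Blcap, Commd1, Trappc9, Gatm and Ppp1r9a among others) imprinting is known mainly from brain or placenta. The counts do not separate the parental copies, so levels are sums over both.

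The RNA came from mast cells of fetal skin of C57BL6J mice at embryonic day 18.5. In the prenatal stress group (3 libraries) the dams, 8 to 10 weeks old, were restrained in a tube under bright light for 30 minutes 3 times a day, from embryonic day 13 or 13.5 to day 18 or 18.5 (the design text and the protocol differ), and in the control group (3 libraries) the dams were left undisturbed. Each library was a pool of 4 mice, 12 mice per group, of both sexes; the number of dams or litters behind a pool is not given in the sources used here. A p-value here therefore weighs the difference between the groups against the spread among pools of 1 group. Whether the pools stand for separate litters is not known. The cells were sorted as CD45-positive, KIT-positive and ST2-positive cells without F4/80 and CD64.

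The libraries held 51710555 to 57806119 gene counts after prenatal stress and 54616570 to 74735139 in the controls. The 12 mast cell markers listed summed to 85800 to 103000 CPM, a count scaled to library size, after prenatal stress and to 59300 to 71500 CPM in the controls. Of the 12, 7 were called higher and none lower, where 4.34% of all genes tested were called higher and 1.85% lower. The 14 macrophage markers were present too, although the gate leaves out F4/80 and CD64, at a summed 4820, 4090 and 7220 CPM in prenatal stress replicates 1, 2 and 3 and at 6070, 6900 and 6830 CPM in control replicates 1, 2 and 3 (1 called higher, Cd68, and 1 lower, Cx3cr1). The 12 fibroblast markers summed to 116, 247 and 102 CPM after prenatal stress and to 117, 119 and 93.6 CPM in the controls, so prenatal stress replicate 2 stood above the other libraries, and 0 of the 10 tested were called by edgeR at an adjusted p of 0.05. Keratinocyte markers summed to 15.0 CPM in prenatal stress replicate 1 and to at most 2.42 CPM in each of the other libraries. Of the 6 melanocyte and Schwann cell markers, 4 were called higher, with sums of 27.6 to 69.7 CPM after prenatal stress and of 13.9 to 19.6 CPM in the controls. In none of these lists was a marker at 0 in all libraries. In pooled cells a lower transcript level from fewer cells of a type and from less RNA per cell cannot be told apart.

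Of the 43 genes, 38 had a summed count of at least 60 and the same 38 passed the filter on low counts. Phlda2, Dio3, Usp29, Magel2 and Mkrn3 were too low to measure, with 6, 1, 39, 25 and 47 counts summed over the 6 libraries. Of the 38 tested, 2 rose after prenatal stress (Kcnq1 and Mirg), 2 fell (H19 and Ppp1r9a) and 34 did not pass an adjusted p of 0.05. That is 10.5% called, where 6.19% of all 16716 genes tested were called (4.34% higher and 1.85% lower). The median log2 fold change was 0.10 over the 38 genes and 0 over all genes tested. Log2 fold changes are prenatal stress over control, given with their standard error (SE), and levels are CPM with TMM-scaled library sizes. The 3 prenatal stress libraries all lay above all controls in 10 of the 38 genes and all below them in 2, where 16% and 14.5% of all genes tested did so. The shares for the imprinted genes were 26.3% and 5.26%. The log2 fold change was above 0 in 25 of the 38 and below 0 in 13, but with scaling by library totals alone, which shifts the median of all genes to -0.119, it was above 0 in 18 and below 0 in 20.

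**Figure D1:**
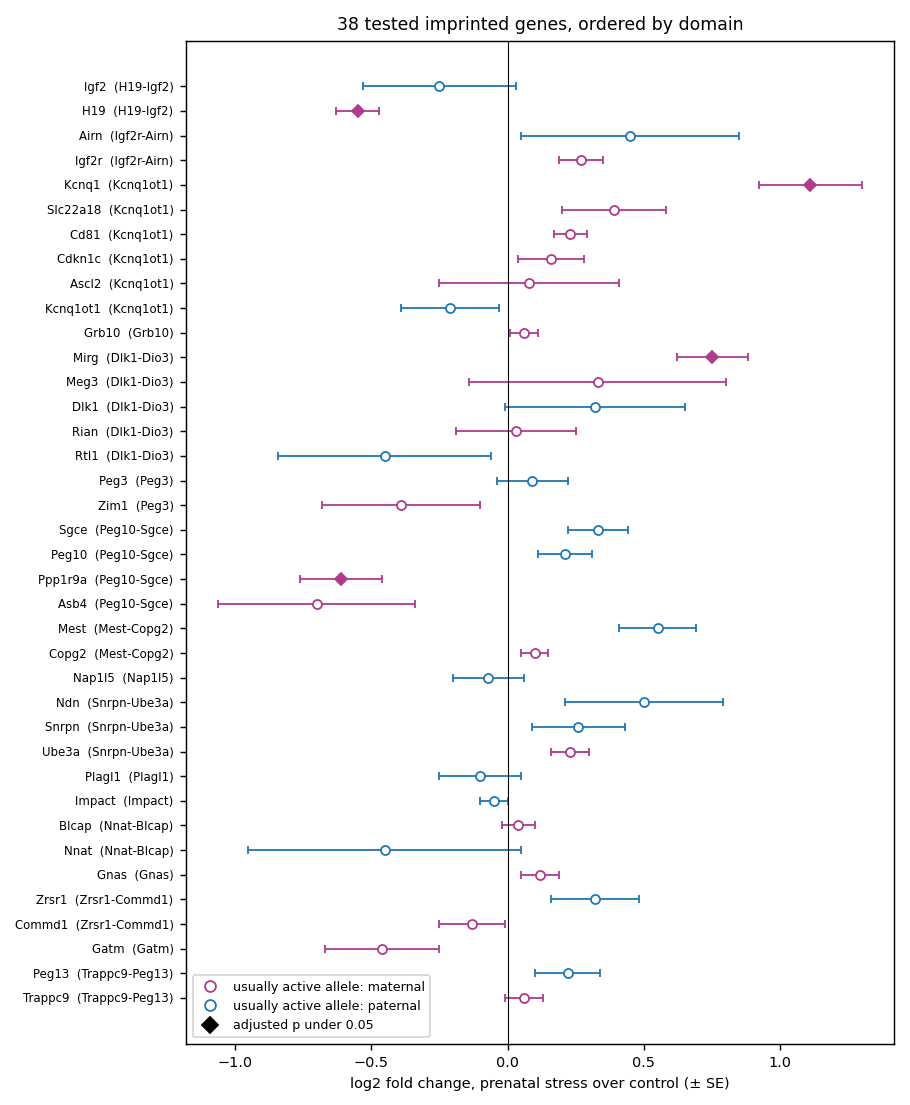
Log2 fold change of the 38 tested imprinted genes, prenatal stress over control, with its standard error, ordered by imprinted domain (named in brackets); filled diamonds passed an adjusted p of 0.05 and colour gives the parental copy known to be active where the gene is imprinted. Kcnq1 at 1.11 and Mirg at 0.75 lie to the right, H19 at -0.55 and Ppp1r9a at -0.61 to the left.

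All 4 called genes are of the kind active from the maternal copy, 4 of 21 tested or 19%, where 6.19% of all genes tested were called. Of the 17 tested genes active from the paternal copy edgeR called 0, and at the share over all genes so few genes would give few calls; 2 had an unadjusted p under 0.05. DESeq2 called 2 of the paternal genes, Mest and Sgce, both higher, and limma-voom called 0. Whether the kinds differ was not tested, and nothing is read from the 0.

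A pair of the called genes are long non-coding RNAs that carry microRNAs, and the sequences are given here because those small RNAs are the best known products of the 2 transcripts. H19 holds the miR-675 hairpin in an exon (GRCm38, chromosome 7, minus strand). Mirg is the host of 14 microRNA hairpins on chromosome 12, of which 5 lie in its exons. The sequences are RefSeq's for GRCm38.p6, 5′ to 3′, with the seed (bases 2 to 8) in capitals. From H19:
miR-675-5p: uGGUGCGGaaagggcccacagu
miR-675-3p: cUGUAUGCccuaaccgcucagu
From each of the 5 hairpins in exons of Mirg, 1 arm:
miR-134-5p: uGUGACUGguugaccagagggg
miR-485-3p: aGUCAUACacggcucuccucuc
miR-377-3p: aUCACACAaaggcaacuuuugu
miR-410-3p: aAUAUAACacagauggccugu
miR-3072-3p: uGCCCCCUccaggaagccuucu
From its introns, the only mature microRNAs of Mirg with a shared seed:
miR-453: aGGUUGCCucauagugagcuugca
miR-496a-5p: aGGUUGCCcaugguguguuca
The 26 mature microRNAs listed for Mirg hold 25 different seeds. The libraries were made from poly-A RNA with a stranded TruSeq kit, and the rows of miR-675 and of all 14 hairpins of Mirg stood at 0 counts, so the host transcripts were measured and the microRNAs were not.

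H19 is the maternally expressed RNA of the H19-Igf2 domain, abundant in fetal tissues and switched down after birth. It was at 185, 210 and 218 CPM in prenatal stress replicates 1, 2 and 3, against 290, 287 and 322 CPM in control replicates 1, 2 and 3. Every prenatal stress library was below every control, with a gap between 218 and 287 CPM. The log2 fold change was -0.55 ± 0.08 (SE), or 0.682 of the control level (edgeR quasi-likelihood test, adjusted p = 0.00943), with means of 204 ± 17.4 CPM after prenatal stress and 300 ± 19.2 CPM in the controls (SD, n = 3 each). Over the fits without 1 library the value ran from -0.61 to -0.49 and the call held in 6 of 6 (adjusted p from 0.00189 to 0.0367). It was -0.51 with the macrophage marker mean as a covariate (adjusted p = 0.0181) and -0.54 with the fibroblast marker mean as a covariate (adjusted p = 0.0479). Per kilobase of exon, H19 had the highest level of the 43 genes, 83.1 CPM per kb after prenatal stress and 122 CPM per kb in the controls, above 97.4% of the 15969 tested genes with an annotated length.

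Igf2, the insulin-like growth factor that shares enhancers with H19, was at 0.892, 0.909 and 0.648 CPM after prenatal stress and at 0.664, 1.00 and 1.27 CPM in the controls. The groups overlapped (log2 fold change -0.25 ± 0.28, adjusted p = 0.626). This level may not hold all Igf2 RNA. In GENCODE M21, 62.8% of the exon length of Igf2 is shared on the same strand with a readthrough gene, Gm49394. The deposited tables also hold a row for Gm49394, at 0 counts in every library, and in HTSeq's usual modes reads from exons that 2 rows share are assigned to neither (the mode used is not given in the sources used here). The H19 row has no such limit beyond the miR-675 hairpin, 3.4% of its exon length.

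Kcnq1 had the largest fold change of the set. It encodes a pore-forming subunit of a voltage-gated potassium channel and lies in the distal chromosome 7 domain steered by the antisense RNA Kcnq1ot1, which starts inside it. Kcnq1 was at 24.7, 29.7 and 19.7 CPM in prenatal stress replicates 1, 2 and 3, against 12.7, 8.35 and 13.2 CPM in control replicates 1, 2 and 3. All prenatal stress libraries were above all controls. The log2 fold change was 1.11 ± 0.19, a 2.15-fold rise (edgeR, adjusted p = 0.017). The call ended without prenatal stress replicate 1 (adjusted p = 0.056) or replicate 2 (0.0651) and with the fibroblast covariate (1.03, adjusted p = 0.0801), and with the macrophage covariate it was 0.84 (adjusted p = 0.021).

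Kcnq1ot1, the paternally expressed silencing RNA of that domain, did not pass: 13.5, 9.17 and 8.33 CPM after prenatal stress and 12.6, 13.0 and 10.1 CPM in the controls (log2 fold change -0.21 ± 0.18, adjusted p = 0.511). The ratio of raw counts of Kcnq1 to Kcnq1ot1 was 1.83, 3.24 and 2.36 after prenatal stress and 1.01, 0.641 and 1.32 in the controls. This ratio was looked at with the values of Kcnq1 known and is a description. Kcnq1ot1 is annotated as 93092 bases of exon on the strand opposite Kcnq1, so if the counting ignored strand (the setting is not given in the sources used here), reads from the introns of Kcnq1 and from Kcnq1ot1 could not be told apart.

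The other genes of the Kcnq1ot1 domain differed less. Cdkn1c, the cyclin-dependent kinase inhibitor p57, was at 7.30 ± 1.12 CPM after prenatal stress and 6.53 ± 0.396 CPM in the controls (log2 fold change 0.16 ± 0.12, adjusted p = 0.447), and 30.7% of its exon length lies opposite another annotated gene. Cd81, a tetraspanin of the cell surface, was at 280, 285 and 276 CPM after prenatal stress and at 247, 220 and 250 CPM in the controls, with no overlap of the groups (0.23 ± 0.06, adjusted p = 0.0688). DESeq2 called Cd81 higher (adjusted p = 0.0195). Slc22a18, a membrane transporter, also lay above all controls, at 2.4, 2.15 and 2.37 CPM after prenatal stress against 1.34, 2.01 and 1.95 CPM in the controls, and did not pass (adjusted p = 0.233). Ascl2, a transcription factor of the placenta, was at 1.07 ± 0.507 CPM after prenatal stress and 1.02 ± 0.222 CPM in the controls (adjusted p = 0.912).

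**Figure D2:**
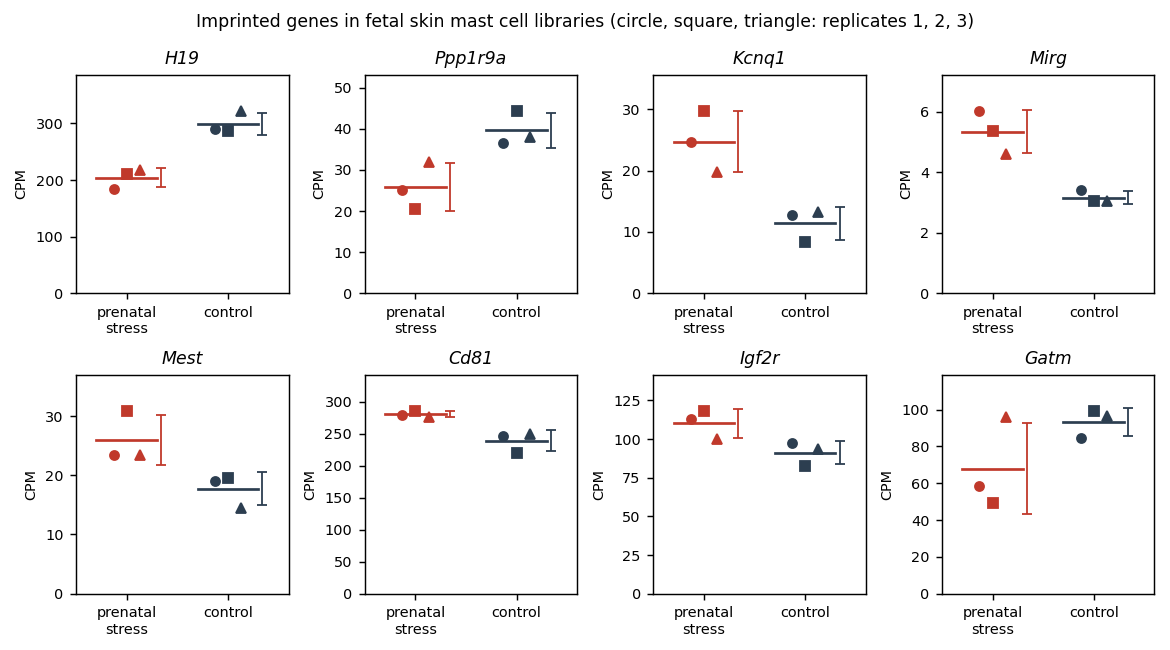
CPM of 8 imprinted genes in each library; circles, squares and triangles are replicates 1, 2 and 3, horizontal lines the group means and error bars the SD (n = 3). H19 and Ppp1r9a are lower and Kcnq1 and Mirg higher in all prenatal stress libraries, while Gatm of prenatal stress replicate 3, at 96.2 CPM, lies among the controls.

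Mirg, the microRNA host transcript at the far end of the Dlk1-Dio3 domain, was at 6.03, 5.38 and 4.62 CPM in prenatal stress replicates 1, 2 and 3, against 3.41, 3.04 and 3.05 CPM in control replicates 1, 2 and 3. The groups did not overlap, and the log2 fold change was 0.75 ± 0.13 (edgeR, adjusted p = 0.0177), a 1.68-fold rise. The call ended without prenatal stress replicate 1 (adjusted p = 0.0536), prenatal stress replicate 2 (0.0689), control replicate 2 (0.085) or control replicate 3 (0.0643), and with the fibroblast covariate (0.74, adjusted p = 0.0723). With the macrophage covariate it was 0.62 (adjusted p = 0.0442).

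The maternal non-coding RNAs of the Dlk1-Dio3 domain, Meg3, Rian and Mirg, are held to be made largely as 1 long transcription unit that starts at Meg3. Rian, which carries small nucleolar RNAs, was at 4.12, 5.53 and 2.91 CPM after prenatal stress and at 3.65, 4.81 and 3.89 CPM in the controls (log2 fold change 0.03 ± 0.22, adjusted p = 0.956). Meg3 was at 2.32, 3.19 and 0.63 CPM after prenatal stress and at 1.89, 1.80 and 1.18 CPM in the controls (0.33 ± 0.47, adjusted p = 0.715). Meg3 was highest in prenatal stress replicate 2, where the fibroblast markers were highest, and lowest in prenatal stress replicate 3; with the fibroblast covariate it was at -0.26 (adjusted p = 0.793). The ratio of raw counts of Mirg to Rian was 1.46, 0.973 and 1.59 after prenatal stress and 0.936, 0.633 and 0.783 in the controls, again a description chosen with the values known. For Mirg to Meg3 the groups overlapped, at 2.6, 1.69 and 7.34 after prenatal stress and 1.81, 1.69 and 2.58 in the controls. The paternally expressed genes of the domain were low. Dlk1, a transmembrane relative of the Notch ligands, was at 2.39 ± 0.869 CPM after prenatal stress and 1.92 ± 0.803 CPM in the controls (adjusted p = 0.582), and Rtl1, a gene derived from a retrotransposon, at 0.144 ± 0.0526 CPM after prenatal stress and 0.197 ± 0.023 CPM in the controls (adjusted p = 0.517). Dio3, which inactivates thyroid hormone, had 1 count.

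**Figure D3:**
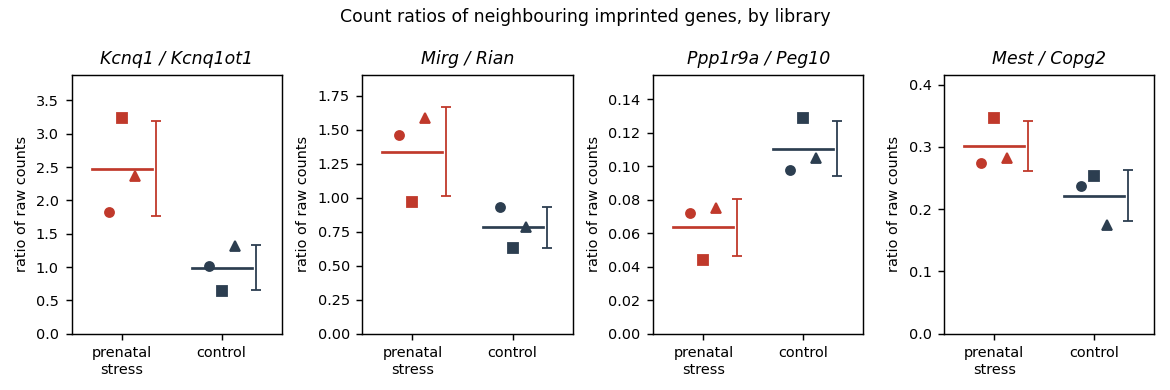
Ratio of raw counts of 4 pairs of neighbouring imprinted genes in each library (symbols as replicates 1, 2 and 3, lines the means, error bars the SD, n = 3). In each pair shown the groups do not overlap. Kcnq1 over Kcnq1ot1, Mirg over Rian and Mest over Copg2 are higher and Ppp1r9a over Peg10 is lower after prenatal stress. The pairs were chosen with the values known. In every other pair computed, Mirg over Meg3 among them, the groups overlapped.

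Ppp1r9a, which encodes the actin-binding protein neurabin, was at 25.2, 20.4 and 32.0 CPM in prenatal stress replicates 1, 2 and 3, against 36.5, 44.3 and 37.9 CPM in control replicates 1, 2 and 3. The groups did not overlap, though prenatal stress replicate 3 came near the lowest control. The log2 fold change was -0.61 ± 0.15 (edgeR, adjusted p = 0.0472). The call ended in 5 of 6 fits without 1 library, each except the one without prenatal stress replicate 3, and the adjusted p ran from 0.00215 to 0.192. With the macrophage covariate it shrank to -0.37 (adjusted p = 0.0457), and with the fibroblast covariate it was -0.52 (adjusted p = 0.132).

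The 2 windows that RefSeq gives for the Ppp1r9a start differ in CpG content, the substrate of DNA methylation, and the richer is shown since CpG methylation is what marks imprints. It runs from 250 bases before to 50 after a start, with CG in capitals (RefSeq, GRCm38.p6).
Ppp1r9a, chr6:4903061-4903360, plus strand: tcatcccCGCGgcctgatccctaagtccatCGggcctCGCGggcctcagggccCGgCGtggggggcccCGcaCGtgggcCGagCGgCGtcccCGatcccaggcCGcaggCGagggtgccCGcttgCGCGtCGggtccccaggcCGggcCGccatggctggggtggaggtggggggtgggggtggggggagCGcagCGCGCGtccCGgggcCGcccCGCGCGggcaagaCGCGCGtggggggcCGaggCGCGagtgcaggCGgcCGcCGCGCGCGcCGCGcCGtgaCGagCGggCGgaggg
The Ppp1r9a window holds 48 CG, and 1.22% of all 32851 windows hold as many or more. The other window of Ppp1r9a holds 10, and 43.5% of all windows hold as many or more. Over the 50 windows of 34 imprinted genes in the table the median was 15.5 CG, and over all windows it was 7. Methylation was not measured in this study, and nothing about the control of these genes follows from the letters.

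In the same chromosome 6 domain, the paternally expressed neighbours of Ppp1r9a did not pass. Peg10, a retrotransposon-derived gene needed for the placenta, was at 351, 464 and 428 CPM after prenatal stress and at 374, 342 and 360 CPM in the controls (log2 fold change 0.21 ± 0.10, adjusted p = 0.23). Sgce, the epsilon-sarcoglycan gene that starts beside Peg10 on the other strand, was at 18.6, 21.4 and 20.2 CPM after prenatal stress and at 17.6, 13.5 and 16.9 CPM in the controls, with no overlap (0.33 ± 0.11, adjusted p = 0.0982; DESeq2 adjusted p = 0.0473). Asb4, which like Ppp1r9a is of the kind active from the maternal copy, did not pass either (adjusted p = 0.26). It was at 0.344 ± 0.0732 CPM after prenatal stress and 0.555 ± 0.217 CPM in the controls. The ratio of raw counts of Ppp1r9a to Peg10 was 0.0719, 0.0439 and 0.0748 after prenatal stress and 0.0978, 0.129 and 0.105 in the controls.

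Gatm, which makes the creatine precursor guanidinoacetate, was among the 5 genes with the highest level per kilobase. It was at 58.3, 49.5 and 96.2 CPM in prenatal stress replicates 1, 2 and 3, against 84.5, 99.1 and 96.4 CPM in control replicates 1, 2 and 3, so prenatal stress replicate 3 stood at the control level. It did not pass (log2 fold change -0.46 ± 0.21, adjusted p = 0.216). Without prenatal stress replicate 3 it was at -0.80 and called lower (adjusted p = 0.00112). The macrophage markers, at a summed 7220 CPM in prenatal stress replicate 3 and at 4820 and 4090 CPM in the others of that group, had the same order, and with the macrophage covariate Gatm was at -0.11 (adjusted p = 0.352). Within the prenatal stress group Ppp1r9a had the same order. H19 was also highest of its group in prenatal stress replicate 3, at 218 CPM, with replicates 1 and 2 in the other order, and it was below each control there. The part of the macrophage share in the levels of Gatm, Ppp1r9a and H19 was not tested. Kcnq1 had the order of the mast cell markers in all 6 libraries, highest in prenatal stress replicate 2 (29.7 CPM, with a mast cell sum of 103000 CPM) and lowest in control replicate 2 (8.35 CPM, with 59300 CPM); the part of the mast cell share in its level was not tested.

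**Figure D4:**
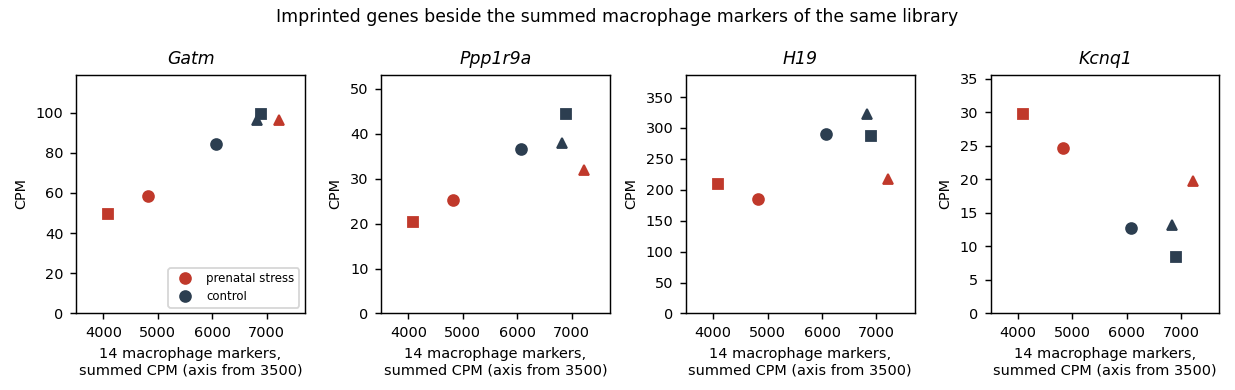
CPM of Gatm, Ppp1r9a, H19 and Kcnq1 against the summed CPM of 14 macrophage markers in the same library (the x axis does not start at 0; circles, squares and triangles are replicates 1, 2 and 3). Prenatal stress replicate 3, at 7220 CPM of macrophage markers, lies with the controls for Gatm and apart from them for H19 and Kcnq1. That is 1 library, and the part of the macrophage share in these levels was not tested.

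The genes of the insulin-like growth factor pathway among the 43 did not pass. Igf2r, the receptor that clears IGF2 and sorts lysosomal enzymes, was at 113, 118 and 100 CPM after prenatal stress and at 97.7, 82.9 and 93.4 CPM in the controls (log2 fold change 0.27 ± 0.08, adjusted p = 0.0839). The groups did not overlap, and DESeq2 called it higher (adjusted p = 0.0328). Airn, the antisense RNA that silences the paternal Igf2r, was at 0.459 ± 0.226 CPM after prenatal stress and 0.331 ± 0.0634 CPM in the controls (adjusted p = 0.52). Grb10, an adaptor that dampens insulin and IGF1 receptor signalling, was nearly level, at 78.5 ± 2.87 CPM after prenatal stress and 75.5 ± 0.606 CPM in the controls (0.06 ± 0.05, adjusted p = 0.544). Plagl1, a zinc finger factor known to bind other imprinted genes, was at 7.56 ± 0.961 CPM after prenatal stress and 8.09 ± 1.56 CPM in the controls (adjusted p = 0.729).

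Mest, a paternally expressed member of the hydrolase fold, came closest to the threshold among the genes not called. It was at 23.5, 30.8 and 23.5 CPM after prenatal stress and at 19, 19.6 and 14.5 CPM in the controls, with no overlap (log2 fold change 0.55 ± 0.14, adjusted p = 0.0536). DESeq2 called it higher (adjusted p = 0.00216), and with the fibroblast covariate it was 0.38 (adjusted p = 0.114). Copg2, a coat protein gene that runs into Mest from the other strand, was at 85.8 ± 2.71 CPM after prenatal stress and 80.1 ± 2.67 CPM in the controls (0.10 ± 0.05, adjusted p = 0.288). Their exons overlap by 23.1% of Mest and 17.8% of Copg2, so both are uncertain if strand was ignored.

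Among the remaining genes, those with the highest levels did not pass. Gnas, the stimulatory G protein alpha subunit locus, whose row sums several overlapping transcripts, was at 707, 760 and 694 CPM after prenatal stress and at 704, 613 and 672 CPM in the controls (log2 fold change 0.12 ± 0.07, adjusted p = 0.335). Of its exon length 22.0% lies opposite other annotated genes, so its level too is uncertain if strand was ignored. Impact, a regulator of the translation kinase GCN2, was at 114 ± 3.51 CPM after prenatal stress and 118 ± 3.68 CPM in the controls (adjusted p = 0.603). Zrsr1, a relative of the splicing factor U2AF1, was at 125, 129 and 85.0 CPM after prenatal stress and at 102, 75.5 and 94.0 CPM in the controls (0.32 ± 0.16, adjusted p = 0.258). Without prenatal stress replicate 3 Zrsr1 was at 0.48 and called higher (edgeR, adjusted p = 0.0139). With the macrophage covariate it was at 0.02 (adjusted p = 0.949). Its host gene Commd1 was at 3.30 ± 0.0521 CPM after prenatal stress and 3.62 ± 0.349 CPM in the controls (adjusted p = 0.547).

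Ube3a, the ubiquitin ligase lost in Angelman syndrome, was at 114, 117 and 97.3 CPM after prenatal stress and at 94.7, 95.3 and 91.1 CPM in the controls, all above the controls (log2 fold change 0.23 ± 0.07, adjusted p = 0.105). Of the exon length of Ube3a 27.3% lies opposite other annotated genes, Snhg14 among them, so its level is uncertain if strand was ignored. The paternally expressed neighbours of Ube3a were low. Snrpn was at 1.56 ± 0.0939 CPM after prenatal stress and 1.30 ± 0.105 CPM in the controls (adjusted p = 0.374), and 27.3% of its exon length is shared on its strand with other rows in GENCODE M21, so its counts may be incomplete, depending on the counting mode. Ndn, encoding necdin, was at 0.747 ± 0.187 CPM after prenatal stress and 0.532 ± 0.122 CPM in the controls (adjusted p = 0.32).

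The last of the 38 were near level or too low to resolve a change. Trappc9 (0.06 ± 0.07) and Blcap (0.04 ± 0.06) had narrow errors around 0, and Peg13, an RNA within Trappc9, was at 0.22 ± 0.12 on the log2 scale (adjusted p = 0.286). Nap1l5 (-0.07 ± 0.13) and the zinc finger gene Peg3 (0.09 ± 0.13) did not pass. With the macrophage covariate Nap1l5 was at -0.32 and called lower (edgeR, adjusted p = 0.0456). Zim1 (-0.39 ± 0.29) and Nnat (-0.45 ± 0.50) had wide errors at mean levels of at most 1.01 CPM in either group.

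**Figure D5:**
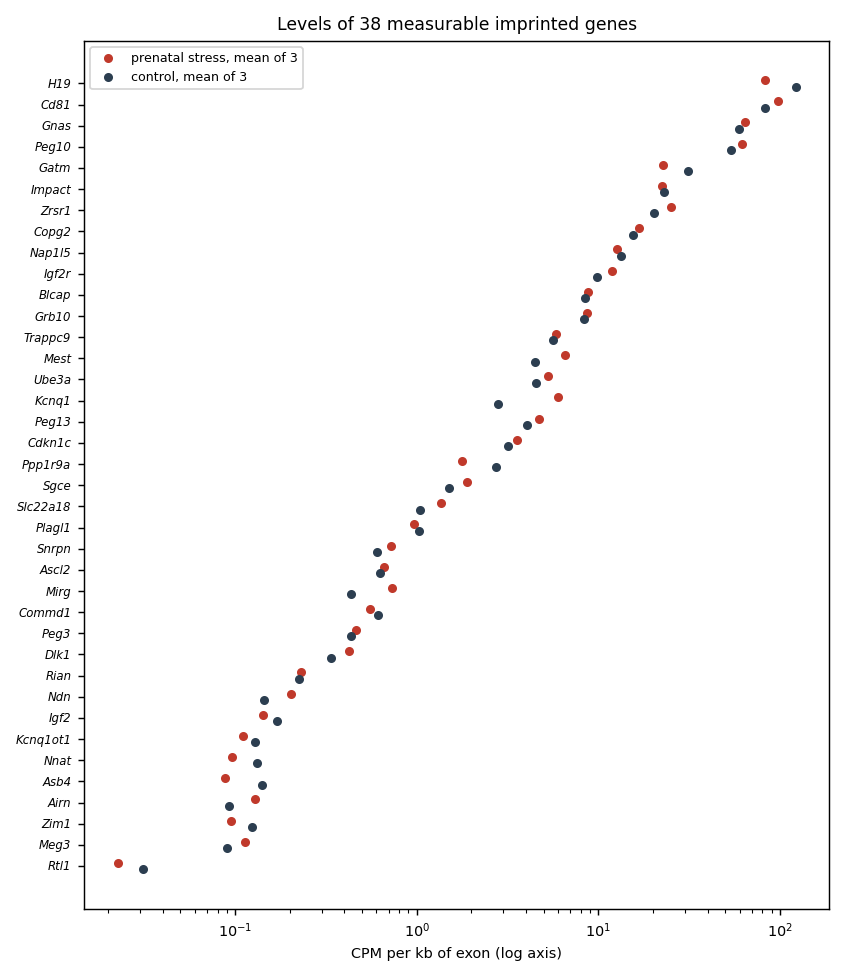
Mean CPM per kb of annotated exon (log axis) of the 38 measurable imprinted genes after prenatal stress and in controls (mean of 3 libraries each). H19, Cd81, Gnas, Peg10 and Gatm are highest and Rtl1 lowest; Igf2 and Snrpn share exons with other rows and may be undercounted, depending on the counting mode.

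By level per kilobase the order began with H19 (102 CPM per kb over all 6 libraries), Cd81 (90.2), Gnas (61.8), Peg10 (58.0) and Gatm (26.9). H19 and Cd81 changed places between groups, with 83.1 and 97.4 CPM per kb after prenatal stress and 122 and 83.0 CPM per kb in the controls. The lowest of the 38 measurable genes was Rtl1, at 0.0268 CPM per kb.

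Of 24 listed genes of the IGF axis 19 were tested, 1 rose, 1 fell and 17 did not pass, 10.5% called where 6.19% of all genes tested were, a difference that rests on 2 genes (median log2 fold change 0.10). Hmga2, a chromatin protein of fetal growth, rose: 87.1, 90.1 and 82.5 CPM after prenatal stress, against 66.3, 55.4 and 60.2 CPM in the controls (0.51 ± 0.07, adjusted p = 0.00948). That call held in 6 of 6 fits without 1 library. Lin28b, which blocks let-7 microRNA maturation, fell: 10.4, 10.3 and 9.53 CPM after prenatal stress against 13.5, 15.1 and 12.3 CPM in the controls (-0.44 ± 0.09, adjusted p = 0.0317). The call of Lin28b held in 2 of 6 such fits, those without prenatal stress replicate 3 (adjusted p = 0.0255) and without control replicate 3 (0.0466), and ended in the others (adjusted p from 0.0694 to 0.128) and with the fibroblast covariate (0.0679). The growth factor gene Igf1 was at 58.4, 49.8 and 88.4 CPM after prenatal stress and at 84.4, 104 and 96.2 CPM in the controls (adjusted p = 0.12), in the order of the macrophage markers within the prenatal stress group, and it is named with its values known.

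Of 25 listed factors that act on or read imprints 24 were tested, 2 fell and 22 did not pass. That is 8.33% called, where 6.19% of all genes tested were called and 1.85% were called lower (median log2 fold change of the list -0.10). The share called in either direction is near the one over all genes, while the share called lower is above it and rests on 2 genes. The prenatal stress libraries all lay below all controls in 9 of the 24 (37.5%, against 14.5% of all genes tested). They all lay above them in 0 (against 16% of all genes tested). Whether the list differs from all genes was not tested. Uhrf1, which brings the maintenance methyltransferase to replicated DNA, was at 82.4, 73.4 and 81.4 CPM after prenatal stress, against 108, 113 and 105 CPM in the controls (-0.46 ± 0.06, adjusted p = 0.00822). That enzyme's gene, Dnmt1, was at 178, 156 and 165 CPM after prenatal stress against 206, 206 and 205 CPM in the controls (-0.31 ± 0.06, adjusted p = 0.0257). The call of Uhrf1 held in 6 of 6 fits without 1 library. The call of Dnmt1 ended without prenatal stress replicate 2 or any 1 control (adjusted p from 0.0822 to 0.0976) and with the macrophage (0.0594) or fibroblast (0.11) covariate. Zfp57 (0.11, adjusted p = 0.682) and Trim28 (-0.19, adjusted p = 0.0599), which protect methylated imprints in the embryo and are named with their values known, did not pass.

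Of 44 further genes listed here as imprinted, 43 had a row and 31 were tested. Of those tested 5 rose, 1 fell and 25 did not pass, so 19.4% were called (median log2 fold change 0.15). Of all genes tested 6.19% were called, 4.34% higher and 1.85% lower. Imprinting of the listed genes in these cells was not measured. The list was drawn up with the rise of Qpct in these data known. Qpct, which forms pyroglutamate at peptide ends, was at 22.0, 19.4 and 16.9 CPM after prenatal stress, against 5.29, 4.08 and 5.07 CPM in the controls (2.01 ± 0.13, edgeR adjusted p = 5.78e-04), and the call held in 6 of 6 fits without 1 library. The others called were Cobl, Atp10a, Ago2 and Bcl2l1, higher, and Phactr2, an actin and phosphatase regulator, lower, at 16.7 ± 1.29 CPM after prenatal stress and 22.7 ± 1.31 CPM in the controls (-0.44 ± 0.08, adjusted p = 0.0195). The call of Phactr2 ended without prenatal stress replicate 1 (0.0568) or 2 (0.0767) or control replicate 2 (0.0879) or 3 (0.055), and with the fibroblast covariate (0.0834). The call of Ago2 held in 2 of 6 fits without 1 library (adjusted p from 0.00908 to 0.112) and that of Bcl2l1 in 1 of 6 (0.0185 to 0.185), and both ended with the macrophage covariate (0.0799 for Ago2, 0.12 for Bcl2l1) and the fibroblast covariate (0.116 for Ago2, 0.0927 for Bcl2l1). That of Bcl2l1 also ended with limma-voom (0.051) and with library totals only (0.0826). Cobl, which nucleates actin filaments and neighbours Grb10, was at 189, 204 and 174 CPM after prenatal stress, against 129, 100 and 128 CPM in the controls (0.67 ± 0.10, adjusted p = 0.0126). Atp10a, a phospholipid flippase gene near Ube3a, was at 27.8 ± 1.99 CPM after prenatal stress and 20.2 ± 1.92 CPM in the controls (0.46 ± 0.09, adjusted p = 0.0226). The call of Cobl ended without prenatal stress replicate 2 (adjusted p = 0.0543) and with the fibroblast covariate (0.0596), and that of Atp10a without prenatal stress replicate 1 (0.0685) or 2 (0.0938) or control replicate 2 (0.0893) or 3 (0.0728), and with the macrophage (0.0501) or fibroblast (0.0903) covariate.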

How the data were processed

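Poly-A RNA of 6 pools was sequenced, 3 per group. The authors deposited raw read counts per gene, 1 table per library; the submitters' processing notes name FastQC, STAR 2.4, HTSeq 0.9.1 and the builds GRCm39 and mm10. For the annotation release, strand setting and counting mode: not given in the sources used here. Rows that name no gene were kept out: 79.7% to 81.4% of all counts were assigned to genes.

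Counts were tested with edgeR 4.0.16 in R 4.3.3 (filterByExpr with a minimum count of 10, TMM factors, quasi-likelihood test, Benjamini-Hochberg adjustment over 16716 genes, threshold 0.05). The SE was taken from the fold change and its F statistic. Lengths and exon overlaps came from GENCODE M21 (GRCm38), microRNA and promoter sequences from RefSeq (GRCm38.p6). The fit was tested on simulated data with 50 changed genes of each size, drawn only from genes above a minimum mean CPM. Its shares therefore do not cover tested genes of low level (Igf2, Airn, Asb4, Ndn, Zim1, Nnat and Rtl1). The fit recovered 14% of 1.25-fold, 64% of 1.5-fold, 92% of 2-fold and 100% of 4-fold changes, and 8 of its 143 calls were false. Most changes of 1.25-fold and a part of those of 1.5-fold were thus missed. A gene that did not pass may still differ by such amounts or more. Alternatives were other scalings and filters, DESeq2 1.42.0, limma-voom (limma 3.58.1), a replicate block, marker covariates, and leaving out each library.

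The imprinted genes and the other lists were chosen with earlier results of these data known. Called imprinted genes and the 5 of highest level per kilobase were described in full, and genes under 60 summed counts were named as too low. Each other list contributed levels for at most 4 of its called genes, taken by smallest p. Ago2 and Bcl2l1, also called, were named only with the fits that changed their calls.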

Additional observations from a re-analysis of the deposited data

How the results depend on the processing

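Over all genes 1035 were called, and 2085 with library totals only, 1933 without a filter, 1879 by DESeq2, 622 with the replicate block, 619 with the macrophage covariate, 186 with the fibroblast covariate, and 196 to 2647 without 1 library. Of all calls 70% were higher, but 26.5% with library totals only. Of the imprinted genes 4 were called, and 8 without a filter and by DESeq2. With the macrophage covariate 5 were called, the 4 and Nap1l5, and with the fibroblast covariate 1 (H19). Without 1 library the count was 1 to 10. It was 1 without prenatal stress replicate 1 or 2 and 10 without prenatal stress replicate 3. It was 3 without control replicate 1 and 2 without control replicate 2 or 3, and H19 was called in each fit. For the IGF axis the count was 2, 4 with library totals only, 6 without a filter, 4 by DESeq2, 1 with the fibroblast covariate and 1 to 8 without 1 library. For the factors that act on or read imprints it was 2, 9 with library totals only, and 4 with the stricter filter and by DESeq2. It was 1 with the replicate block, with the macrophage covariate and with the fibroblast covariate, and 1 to 4 without 1 library. For the further genes listed as imprinted it was 6, 3 with the macrophage covariate, 1 with the fibroblast covariate and 1 to 9 without 1 library. The cause of these shifts was not tested. With the replicate number as a block 4 imprinted genes were called, 3 of them shared (H19, Kcnq1 and Mirg), with Mest (adjusted p = 0.0315) in place of Ppp1r9a (0.0644), and among the other lists the calls of Dnmt1 (0.0539) and Ago2 (0.0644) ended. Same-numbered libraries did not deviate together (correlations across genes of 0.1, -0.02 and 0.07), so the numbers were not taken as pairs, and not every library correlated best with its own number. Depth limits genes under 60 summed counts.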
